A study of Homo sapiens with 12 samples.

Results

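The genes described here make amino acids, carry them into the cell and load them onto tRNA. They are 34 named genes: enzymes of serine, glycine, asparagine, proline and cysteine synthesis and of mitochondrial folate metabolism, amino acid transporters, and cytosolic aminoacyl-tRNA synthetases. They were chosen by name, and 32 of the 34 were measured, out of 19775 genes in all. Of the 2 others, MARS1 was read by probe sets that also carry a microRNA symbol, and GPT2 had no probe set with a gene symbol of its own, so both are not analysed here. Each gene was followed on its brightest probe set with a single symbol.

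Expression was measured on 12 Affymetrix arrays of U-87 MG, an established human glioma line, in 4 groups of 3. The groups were shp105 cells given temozolomide (TMZ), shp105 cells given DMSO, shControl cells given TMZ and shControl cells given DMSO. The shp105 cells were stably transfected with a hairpin against p105, the NFKB1 product from which the NF-kB subunit p50 is made, and the shControl cells with a control hairpin. TMZ, a DNA-methylating glioma drug, was given at 100 uM for 16 h, and DMSO for 16 h. The source names of the samples state this dose for shControl cells, and name TMZ without a dose for shp105 cells. Every group shared the parent line and a stable hairpin, and whether a line came from 1 clone is not given in the sources used here. A difference between the lines is thus a difference between cells carrying 2 different hairpins. The labels call the replicates biological without naming separate transfections, so p-values measure the spread between these samples.

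The hairpin target NFKB1 averaged a log2 level of 7.16 in shp105 cells with TMZ and 7.20 in shp105 cells with DMSO, against 7.41 in shControl cells with TMZ and 7.32 in shControl cells with DMSO. It was lower in shp105 cells under TMZ (-0.25, adjusted p = 0.0204) and did not pass in DMSO (-0.12, adjusted p = 0.260). Of 8 markers of the glioma line, VIM stood between 14.73 and 14.81 in all groups. GFAP stood between 5.05 and 5.21, below the median level of all genes (6.34). NES, at 4.92 to 5.53, was also below it. NES differed between the lines by 0.55 in TMZ (adjusted p = 0.0817) and 0.61 in DMSO (adjusted p = 0.0582) and was not called. In shp105 cells SPARC was higher (0.60 in TMZ and 0.54 in DMSO), CD44 lower (-0.32 and -0.25), and ANXA1 higher in DMSO (0.16). The mean of the 8 on an array lay between 10.88 and 10.92 in shp105 cells with TMZ, 10.93 and 11.01 in shp105 cells with DMSO, 10.69 and 10.83 in shControl cells with TMZ, and 10.79 and 10.82 in shControl cells with DMSO.

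Some markers of other cell types differed between the lines. Of 7 leukocyte markers 0 were called between the lines by limma, with 1 at an unadjusted p under 0.05 in TMZ and 0 in DMSO. Their mean on an array lay between 4.10 and 4.15 in shp105 cells with TMZ, 4.06 and 4.12 in shp105 cells with DMSO, 4.16 and 4.22 in shControl cells with TMZ, and 4.09 and 4.16 in shControl cells with DMSO. PTPRC averaged 2.92 to 3.23, inside the range of bacterial control probe sets, whose group means ran from 2.43 to 4.17, while CD3E (5.63 to 5.87), ITGAM (5.36 to 5.47) and MS4A1 (4.15 to 4.46) reached above it. Of 7 epithelial markers KRT8 was higher (0.80 in TMZ and 0.69 in DMSO), EPCAM lower (-0.45 and -0.39) and KRT18 higher in DMSO (0.33). Their mean on an array lay between 4.88 and 4.97 in shp105 cells with TMZ, 4.90 and 4.93 in shp105 cells with DMSO, 4.76 and 4.92 in shControl cells with TMZ, and 4.76 and 4.81 in shControl cells with DMSO. Of 5 endothelial markers KDR was lower in DMSO (-0.56), while limma called 0 in TMZ, with 1 at an unadjusted p under 0.05. Their mean lay between 4.10 and 4.33 in shp105 cells with TMZ, 4.19 and 4.30 in shp105 cells with DMSO, 4.32 and 4.45 in shControl cells with TMZ, and 4.35 and 4.52 in shControl cells with DMSO. The part of these markers in the results below was not tested.

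The hybridization spike-ins, added to each sample before it met the array, moved with the groups. They averaged 11.32 (SD 0.13) in shp105 cells with TMZ, 11.13 (SD 0.10) in shp105 cells with DMSO, 10.95 (SD 0.09) in shControl cells with TMZ and 10.63 (SD 0.05) in shControl cells with DMSO. Signs of RNA quality moved with the lines as well. The gap between the 3' and 5' GAPDH probe sets (log2) was 0.37 to 0.44 in shp105 cells with TMZ, against 0.27 to 0.32 in shControl cells with TMZ, and 0.33 to 0.40 in shp105 cells with DMSO, against 0.22 to 0.27 in shControl cells with DMSO. The same gap for ACTB was 3.01 to 3.15 in shp105 cells with TMZ, against 2.78 to 2.94 in shControl cells with TMZ, and overlapped between the lines in DMSO (2.94 to 3.14 in shp105 cells, 2.95 to 3.07 in shControl cells). Their part in the line differences was not tested.

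Most of these genes belong to the amino acid response. When uncharged tRNA or another stress leads to phosphorylation of the translation factor eIF2, general translation falls while the transcription factor ATF4 is translated more, and ATF4 with C/EBP partners activates genes that restore amino acid supply. Serine synthesis starts from a glycolytic intermediate and feeds glycine and folate-bound carbon units, which proliferating cells use for nucleotides. The synthetases join each amino acid to its tRNA, and the transporters bring in or exchange amino acids, among them cystine for glutathione.

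The composite DNA element read by ATF4 and a C/EBP partner was looked for in RefSeq promoter windows of GRCh38.p14, which run from 250 bases before to 50 bases after a gene's annotated start. The letters searched were TGATGNAA on either strand, where N is any base, and no second motif was searched. Of the 32 measured genes 24 had a window, and 11 of these 24 (45.8%) held the letters, against 1217 of 27305 genes with a window (4.46%). Counted by window, since genes can have several starts, it was 13 of 40 (32.5%) against 1270 of 35116 (3.62%). The genes were chosen by name and most belong to the amino acid response, so these shares are no result of the arrays. A match is a string of letters and no measured binding. Of the 14 genes called higher in shp105 cells under TMZ, 10 had a window and 6 of these held the letters. CTH and SLC7A5, which led the line differences, had a window without the letters, and YARS1 had no window. The sites of the 6 matching genes that were higher in shp105 cells under TMZ, and those of AARS1 and IARS1, which were not called in any comparison, are shown here with the matched letters in capitals, 5′ to 3′ on the gene's strand. TTGCATCA and TTTCATCA are matches on the opposite strand.
ASNS: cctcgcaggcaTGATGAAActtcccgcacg
GARS1: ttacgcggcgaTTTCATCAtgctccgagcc
NARS1: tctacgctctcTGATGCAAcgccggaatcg
TARS1: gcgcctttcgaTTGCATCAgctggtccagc
CARS1: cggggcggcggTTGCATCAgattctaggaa
SLC1A5: gaggaagtggcTGATGCAAgctgtccaggg
AARS1: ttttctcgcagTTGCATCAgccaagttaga
IARS1: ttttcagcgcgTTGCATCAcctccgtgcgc
These stretches lie at chr7:97872458-97872487 on the minus strand for ASNS, chr7:30594834-30594863 on the plus strand for GARS1, chr18:57621804-57621833 on the minus strand for NARS1 and chr5:33440956-33440985 on the plus strand for TARS1. The others are at chr11:3057407-3057436 for CARS1, chr19:46784893-46784922 for SLC1A5, chr16:70289675-70289704 for AARS1 and chr9:92293692-92293721 for IARS1, all on the minus strand. The first matched base was at position -68 from the start of ASNS, where the start is +1, at -33 for GARS1, -97 for SLC1A5 and -187 for AARS1. In IARS1 it was at -13, in CARS1 at -2, in TARS1 at 3 and in NARS1 at 15.

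By role, the letters were present in 7 of 10 cytosolic synthetase genes with a window, which include MARS1, in 3 of 6 transporter genes and in 1 of 3 genes of asparagine, proline and phosphoenolpyruvate synthesis, but in 0 of 2 serine synthesis and 0 of 2 transsulfuration genes with a window. The further matches were in MARS1, MTHFD1L, SLC1A4 and SLC3A2. Among genes with a window, 6 of 12 called in any comparison below (50%) and 5 of 12 called in none (41.7%) held the letters. For other cytosolic synthetases and synthetase scaffolds the count was 0 of 9, for other genes of the folate and methionine cycles 0 of 14, and for mitochondrial synthetases 1 of 14. It was 3 of 14 (21.4%) for other amino acid transporters, 4 of 20 (20%) for genes of the integrated stress response and 2 of 13 (15.4%) for other amino acid enzymes.

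Under TMZ, 14 of the 32 amino acid genes were higher in shp105 than in shControl cells, 1 was lower and 17 were not called. Over all genes, 10.1% were called higher and 11% lower. The median log2 difference of the 32 genes was 0.16, and that of all genes -0.01. The largest differences were those of CTH, which makes cysteine from cystathionine, SLC7A5, the light chain of the large neutral amino acid exchanger, and YARS1, the tyrosyl-tRNA synthetase, with CTH 1.63-fold and YARS1 1.42-fold higher. All values are limma log2 differences with Benjamini-Hochberg adjustment over the 19775 genes, called under an adjusted p of 0.05, with the standard error (SE) of a fit to all 12 arrays. In bulk RNA a change in some of the cells and a smaller change in all of them cannot be told apart.

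**Figure D1:**
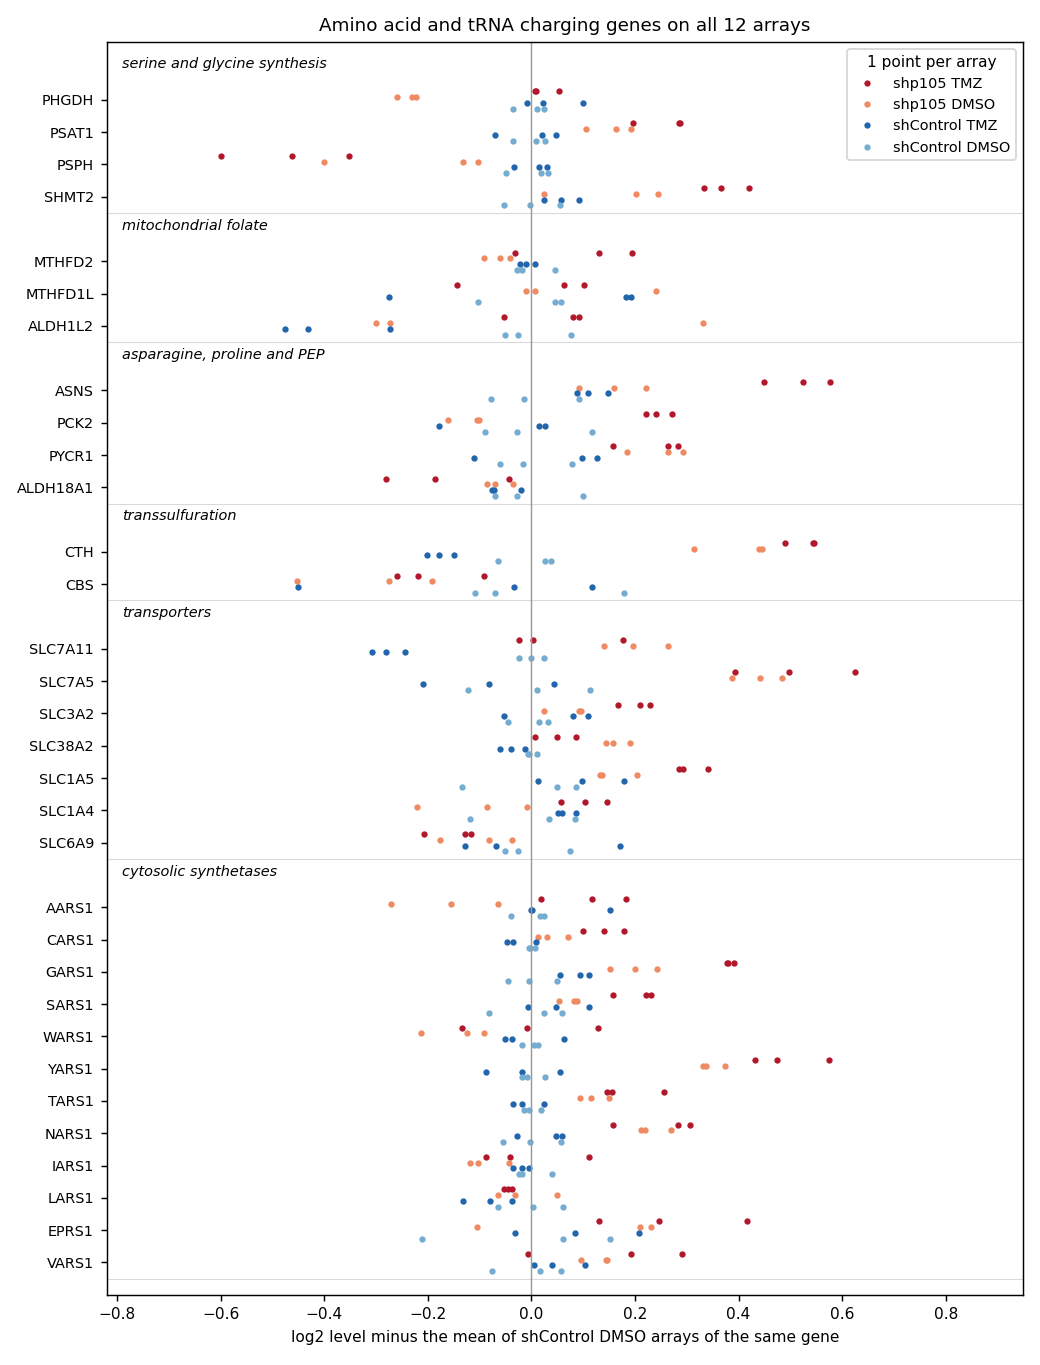
Log2 level of each of the 32 genes on each of the 12 arrays, minus the mean of the 3 shControl DMSO arrays of that gene (horizontal axis), with genes grouped by role down the page and 1 point per array. The points of shp105 TMZ arrays lie right of all shControl TMZ arrays for 18 genes, among them CTH, SLC7A5, YARS1, ASNS and GARS1, and left of them for PSPH.

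Without an adjusted test, 18 of the 32 genes had all 3 shp105 TMZ arrays above all 3 shControl TMZ arrays, and 1 had them all below; among all genes the shares were 17.2% and 18.5%.

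Of the 4 serine and glycine enzymes, 2 were higher and 1 lower under TMZ. PSAT1, the aminotransferase of the second step of serine synthesis, had log2 levels of 12.07, 11.98 and 12.07 in shp105 cells with TMZ, against 11.81, 11.72 and 11.84 in shControl cells with TMZ. The groups did not overlap, and the difference was 0.26 (SE 0.05, adjusted p = 0.00433). Its dimmer probe set differed by 0.08 (adjusted p = 0.431 among all probe sets). SHMT2, the mitochondrial enzyme that turns serine into glycine and a folate-bound carbon unit, had levels of 11.31, 11.40 and 11.34 in shp105 cells with TMZ, against 11.03, 11.07 and 11.00 in shControl cells with TMZ, a difference of 0.31 (SE 0.06, adjusted p = 0.00372). Its 3 probe sets differed by 0.21 to 0.31.

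PSPH, the phosphatase of the last step of serine synthesis, went the other way. It had levels of 7.91, 7.66 and 7.80 in shp105 cells with TMZ, against 8.23, 8.27 and 8.29 in shControl cells with TMZ, and the gene was lower, at -0.48 on the log2 scale (SE 0.08, adjusted p = 0.00152). Its probe sets disagreed, with -0.16 and 0.16 on the dimmer ones, and PSPH has a near-identical pseudogene whose transcripts these probes may read. With the mean of its probe sets the difference was -0.16 and not called (adjusted p = 0.222). PHGDH, the first enzyme of the pathway, had levels of 9.38, 9.38 and 9.43 in shp105 cells with TMZ, against 9.37, 9.47 and 9.40 in shControl cells with TMZ. Those groups overlapped, and the difference was -0.01 (adjusted p = 0.881).

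Of the 3 mitochondrial folate genes, ALDH1L2, a formyl-folate dehydrogenase, was called under TMZ. Its levels were 5.51, 5.36 and 5.50 in shp105 cells with TMZ, against 5.15, 4.99 and 4.94 in shControl cells with TMZ, a difference of 0.43 (SE 0.14, adjusted p = 0.0447). The call was lost when any 1 of these 6 arrays, or any 1 of the 3 shControl DMSO arrays, was left out, with adjusted p values of 0.0554 to 0.132. In DMSO its levels were 5.15, 5.75 and 5.12 in shp105 cells, against 5.50, 5.39 and 5.37 in shControl cells, a difference of -0.08. The dimmer ALDH1L2 probe sets, at 3.80 and 3.12, lay within the range of the bacterial controls. They differed by 0.39 and 0.11 in TMZ and by 0.39 and -0.06 in DMSO. MTHFD2, the folate dehydrogenase and cyclohydrolase, differed by 0.11 (adjusted p = 0.256). MTHFD1L, the mitochondrial formyl-folate synthetase, stood at 3.25 in shp105 cells with TMZ and 3.28 in shControl cells with TMZ, within the range of the bacterial controls, so its probe set gives no usable difference.

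Asparagine synthetase, ASNS, had levels of 11.46, 11.52 and 11.39 in shp105 cells with TMZ, against 11.09, 11.05 and 11.03 in shControl cells with TMZ. All shp105 arrays were above all shControl arrays, and the gene was higher by 0.40 (SE 0.06, adjusted p = 0.000502), or 1.32-fold. Its second probe set averaged 2.88, in the range of the bacterial controls, and with the mean of both the call was lost. PCK2, the mitochondrial phosphoenolpyruvate carboxykinase, had levels of 7.42, 7.45 and 7.40 in shp105 cells with TMZ, against 7.00, 7.21 and 7.20 in shControl cells with TMZ, and was higher by 0.29 (SE 0.07, adjusted p = 0.0102). The proline enzymes PYCR1 and ALDH18A1 were not called, at 0.20 (adjusted p = 0.0772) and -0.11 (adjusted p = 0.276).

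CTH had levels of 9.10, 9.10 and 9.05 in shp105 cells with TMZ, against 8.36, 8.38 and 8.41 in shControl cells with TMZ. The gap was far wider than the spread of either group, and the difference was 0.70 (SE 0.05, adjusted p = 2.55e-06). The second CTH probe set differed by 0.84. CBS, which makes the cystathionine that CTH cleaves, stood at 4.23 in shp105 cells with TMZ and 4.30 in shControl cells with TMZ, near the bacterial controls, and was not called (-0.07, adjusted p = 0.785). Its dimmer probe sets, at 4.05 and 3.93, differed by -0.54 (adjusted p = 0.0240 among all probe sets) and -0.29 (adjusted p = 0.274) in TMZ, and by -0.57 each in DMSO (adjusted p = 0.0185 and 0.0317).

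Of 7 transporters, 3 were higher and 0 lower under TMZ. SLC7A5 had levels of 8.78, 8.67 and 8.90 in shp105 cells with TMZ, against 8.07, 8.32 and 8.20 in shControl cells with TMZ, a difference of 0.59 (SE 0.08, adjusted p = 0.000352). SLC7A11, the cystine-glutamate exchanger, had levels of 9.58, 9.55 and 9.75 in shp105 cells with TMZ, against 9.27, 9.33 and 9.29 in shControl cells with TMZ, a difference of 0.33 (SE 0.06, adjusted p = 0.00212), and its 3 probe sets differed by 0.14 to 0.42. SLC1A5, a glutamine transporter, had levels of 9.03, 9.02 and 9.08 in shp105 cells with TMZ, against 8.84, 8.92 and 8.75 in shControl cells with TMZ and was higher by 0.21 (SE 0.07, adjusted p = 0.0435), a call lost when any 1 of 9 of the 12 arrays was left out. The 3 arrays whose omission kept it were shControl TMZ replicate 2 and shControl DMSO replicates 1 and 2.

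SLC3A2, the heavy chain that partners both SLC7A5 and SLC7A11, had levels of 8.86, 8.92 and 8.90 in shp105 cells with TMZ, against 8.77, 8.80 and 8.64 in shControl cells with TMZ. Those groups did not overlap, yet the difference of 0.16 missed the threshold (adjusted p = 0.0692). The neutral amino acid transporters SLC38A2 and SLC1A4 differed by 0.08 (adjusted p = 0.230) and 0.04 (adjusted p = 0.774), on probe sets whose x suffix marks possible reading of other transcripts. The glycine transporter SLC6A9 averaged 2.94 in shp105 cells with TMZ and 3.09 in shControl cells with TMZ, in the range of the bacterial controls.

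Of 12 cytosolic synthetases, 5 were higher under TMZ, 0 were lower, and all 12 differences were above 0, from 0.00 to 0.51; of all genes 48.2% were above 0. YARS1 had levels of 11.14, 11.09 and 11.24 in shp105 cells with TMZ, against 10.72, 10.64 and 10.58 in shControl cells with TMZ, a difference of 0.51 (SE 0.06, adjusted p = 4.09e-05), with 0.48 on its second probe set. GARS1, the glycyl-tRNA synthetase, had levels of 12.55, 12.55 and 12.56 in shp105 cells with TMZ, against 12.26, 12.28 and 12.23 in shControl cells with TMZ, a difference of 0.30 (SE 0.05, adjusted p = 0.000908). NARS1 (asparagine), TARS1 (threonine) and CARS1 (cysteine) were higher by 0.22, 0.20 and 0.16, with adjusted p values of 0.0146, 0.0136 and 0.0238. Leaving out shControl TMZ replicate 2 ended the call of NARS1, replicate 1 that of TARS1, and replicate 2 or 3, or shp105 TMZ replicate 3, that of CARS1. The dimmer CARS1 probe sets differed by 0.26, 0.33 and 0.45 in TMZ (adjusted p = 0.0405, 0.0659 and 0.00131 among all probe sets). In DMSO they differed by 0.22, 0.14 and 0.32 (adjusted p = 0.0876, 0.489 and 0.0116), and the brightest by 0.04, not called.

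The other 7 synthetases were not called. SARS1, for serine, came closest with a difference of 0.15 (adjusted p = 0.0707), and its arrays did not overlap. The second SARS1 probe set differed by 0.03 (adjusted p = 0.819 among all probe sets). AARS1 (alanine), WARS1 (tryptophan), IARS1 (isoleucine) and LARS1 (leucine) differed by 0.06, 0.00, 0.01 and 0.04. The dimmer LARS1 probe sets differed by -0.07, -0.01 and 0.18, and the second WARS1 probe set by 0.17. VARS1 (valine) differed by 0.11 and EPRS1, which serves glutamate and proline, by 0.18 with an SE of 0.12.

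**Figure D2:**
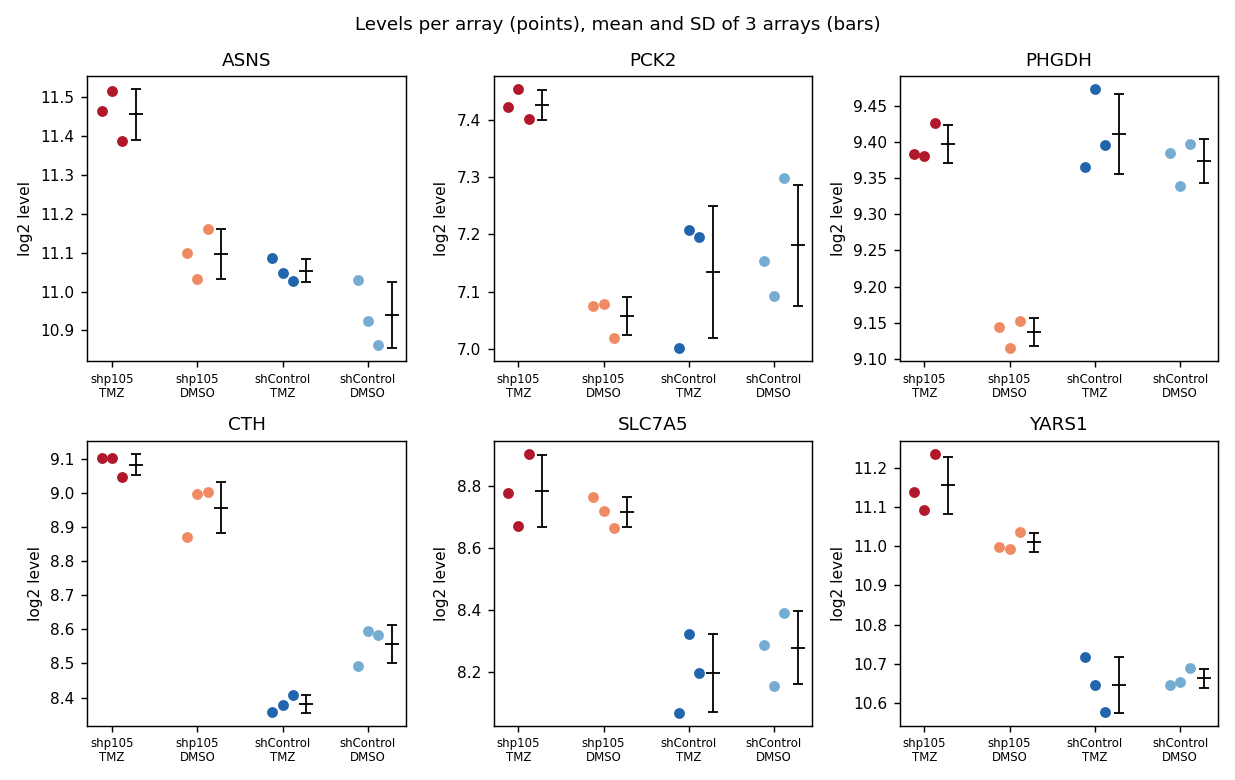
Log2 level (vertical axis, scaled per gene) of 6 genes on each array, as points by group, with the mean and SD of 3 arrays beside them. CTH, SLC7A5 and YARS1 separate the lines under both treatments, ASNS and PCK2 stand highest in shp105 cells with TMZ, and PHGDH stands lowest in shp105 cells with DMSO at 9.14.

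In DMSO, 8 of the 32 genes were higher in shp105 cells and 1 was lower, with 23 not called; over all genes 8.34% were called higher and 11.6% lower. The median log2 difference was 0.08, and -0.01 over all genes. CTH, SLC7A5 and YARS1 again led, and 6 genes were called higher under both treatments. These were CTH, SLC7A5, SLC7A11, GARS1, NARS1 and YARS1, and 6.6% of all genes were higher under both.

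CTH had levels of 8.87, 9.00 and 9.00 in shp105 cells with DMSO, against 8.49, 8.60 and 8.59 in shControl cells with DMSO, a difference of 0.40 (SE 0.05, adjusted p = 0.000232). SLC7A5 had levels of 8.76, 8.72 and 8.67 in shp105 cells with DMSO, against 8.29, 8.16 and 8.39 in shControl cells with DMSO, and was higher by 0.44 (SE 0.08, adjusted p = 0.00287). YARS1 had levels of 11.00, 10.99 and 11.04 in shp105 cells with DMSO, against 10.64, 10.65 and 10.69 in shControl cells with DMSO, and was higher by 0.35 (SE 0.06, adjusted p = 0.000783). In each of these 3 genes the lowest shp105 array was above the highest shControl array. Of the 32 genes, 14 had all shp105 arrays above and 8 below all shControl arrays in DMSO, with 15.1% and 20.8% of all genes.

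The other genes called higher in DMSO were PYCR1, the last enzyme of proline synthesis, at 0.25, NARS1 at 0.23, GARS1 and SLC7A11 at 0.20 each, and SLC38A2 at 0.16. Each of these 5 lost the call without some single array: SLC38A2 without any of the 6 DMSO arrays, NARS1 without shControl DMSO replicate 3, GARS1 without shp105 DMSO replicate 1 or shControl DMSO replicate 2, and PYCR1 without either of these, shp105 DMSO replicate 2 or shControl DMSO replicate 1. SLC7A11 lost it without shp105 DMSO replicate 1 or 3 or any of the 6 shControl arrays. SLC38A2 had levels of 13.03, 13.08 and 13.04 in shp105 cells with DMSO, against 12.90, 12.88 and 12.88 in shControl cells with DMSO. Its 2 other probe sets differed by 0.08 each and were not called.

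PHGDH was the lower gene in DMSO. It had levels of 9.14, 9.11 and 9.15 in shp105 cells with DMSO, against 9.38, 9.34 and 9.40 in shControl cells with DMSO, a difference of -0.24 (SE 0.05, adjusted p = 0.00400). PSPH, the last enzyme of the same route, differed by -0.21 (adjusted p = 0.106), and PSAT1, the enzyme between them, by 0.15 (adjusted p = 0.0642). The dimmer probe sets of PSPH gave -0.44 (adjusted p = 0.0160 among all probe sets) and 0.20 (adjusted p = 0.468). The second probe set of PSAT1 gave -0.15, so its direction in DMSO depends on the probe set.

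**Figure D3:**
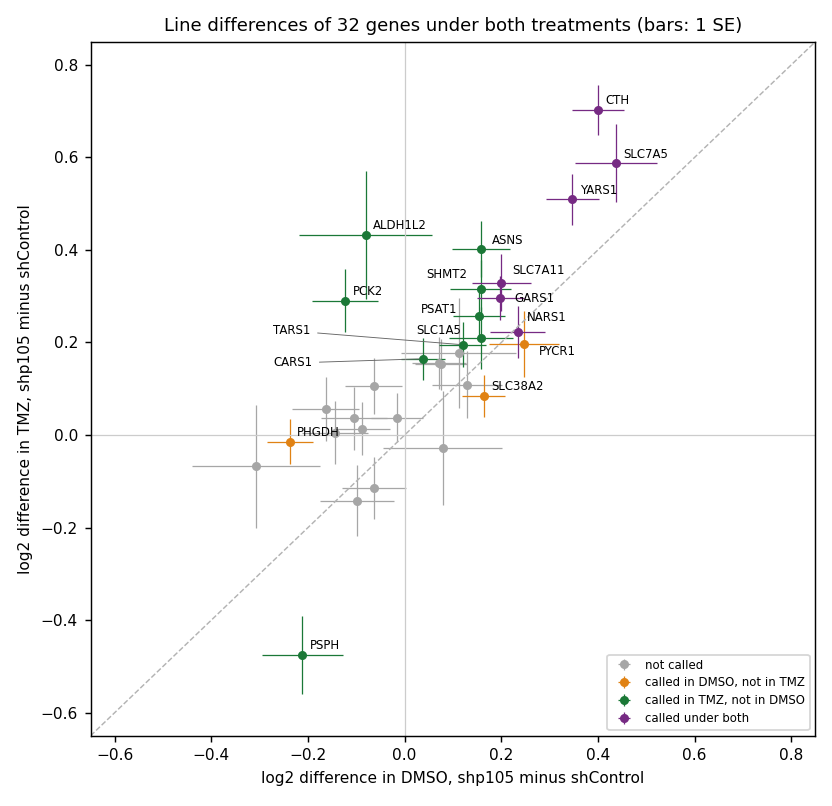
Log2 difference between the lines (shp105 minus shControl) of 32 genes in DMSO (horizontal axis) and in TMZ (vertical axis), with bars of 1 SE and colours for the calls. The 6 genes called under both treatments lie at upper right, PCK2 and ALDH1L2 lie above 0 in TMZ and below 0 in DMSO, and most called genes lie above the dashed line of equal differences. The direction of ALDH1L2 in DMSO depends on the probe set.

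The line differences in DMSO and in TMZ share no arrays. Across the 32 genes they correlated at r = 0.75 (rho = 0.74), and 23 of 32 had the same sign; across all genes r was 0.90, and 70.5% had the same sign. These are descriptions across genes on the same arrays within each group, and genes are not independent replicates. The counts of called genes were 15 in TMZ and 9 in DMSO, but 18 and 15 with a trended and robust variance and 17 and 15 with dim genes left out. Calls over all genes rose as well, from 4166 and 3937 to 4995 and 4714 with the trended and robust variance. With genes below the median level left out they were 4332 and 4176, out of fewer genes, and 28 of the 32 remained. In the first fit, 0 of the 32 genes were called in opposite directions, and 14 were called under neither treatment.

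In shp105 cells TMZ raised 3 of the 32 genes, ASNS, PCK2 and PHGDH, and lowered 0. Over all genes 0.647% were called higher and 0.217% lower in this comparison. At an unadjusted p under 0.05, 14 of the 32 were higher and 3 lower, against 9.59% and 6.72% of all genes. The median of the 32 differences was 0.12, and that of all genes 0.01.

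ASNS had log2 levels of 11.46, 11.52 and 11.39 in shp105 cells with TMZ, against 11.10, 11.03 and 11.16 in shp105 cells with DMSO, and rose by 0.36 (SE 0.06, adjusted p = 0.0218). Its second probe set, at 2.88 in the range of the bacterial controls, differed by -0.09, and with the mean of both the call was lost. PCK2 had levels of 7.42, 7.45 and 7.40 in shp105 cells with TMZ, against 7.08, 7.08 and 7.02 in shp105 cells with DMSO and rose by 0.37 (SE 0.07, adjusted p = 0.0347). PHGDH had levels of 9.38, 9.38 and 9.43 in shp105 cells with TMZ, against 9.14, 9.11 and 9.15 in shp105 cells with DMSO and rose by 0.26 (SE 0.05, adjusted p = 0.0324). In each of the 3 genes the TMZ and DMSO arrays did not overlap. Of the 32 genes, 15 had all TMZ arrays above all DMSO arrays, with 12.5% of all genes.

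All 3 calls were lost with the 2 shp105 groups fitted alone, with the replicate number as a block, and without shp105_TMZ replicate 2, shp105_DMSO replicate 1 or shp105_DMSO replicate 2, while each difference stayed above 0 under every alternative run. AARS1, at 0.27 (adjusted p = 0.0867), and GARS1, at 0.18 (adjusted p = 0.0913), did not pass. Of the 12 synthetases 11 had a difference above 0, with 54.6% of all genes above 0.

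In shControl cells, 0 of the 32 genes were called after TMZ by limma, with 0.369% of all genes called. At an unadjusted p under 0.05 there were 3, all with negative values, beside 11% of all genes and 5.76% with negative values. SLC7A11 had levels of 9.27, 9.33 and 9.29 in shControl cells with TMZ, against 9.57, 9.55 and 9.60 in shControl cells with DMSO, and its difference was -0.28 (SE 0.06, adjusted p = 0.108). It was called lower with array weights, with a trended and robust variance, and with dim genes left out, which were the settings that called any of the 32 genes here. The dimmer SLC7A11 probe sets differed by -0.17 and -0.03 (adjusted p = 0.49 and 0.958 among all probe sets). The other 2 genes at an unadjusted p under 0.05 were CTH at -0.18 (adjusted p = 0.254) and ALDH1L2 at -0.39 (adjusted p = 0.319). ASNS, PCK2 and PHGDH differed by 0.11, -0.05 and 0.04 in these cells.

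**Figure D4:**
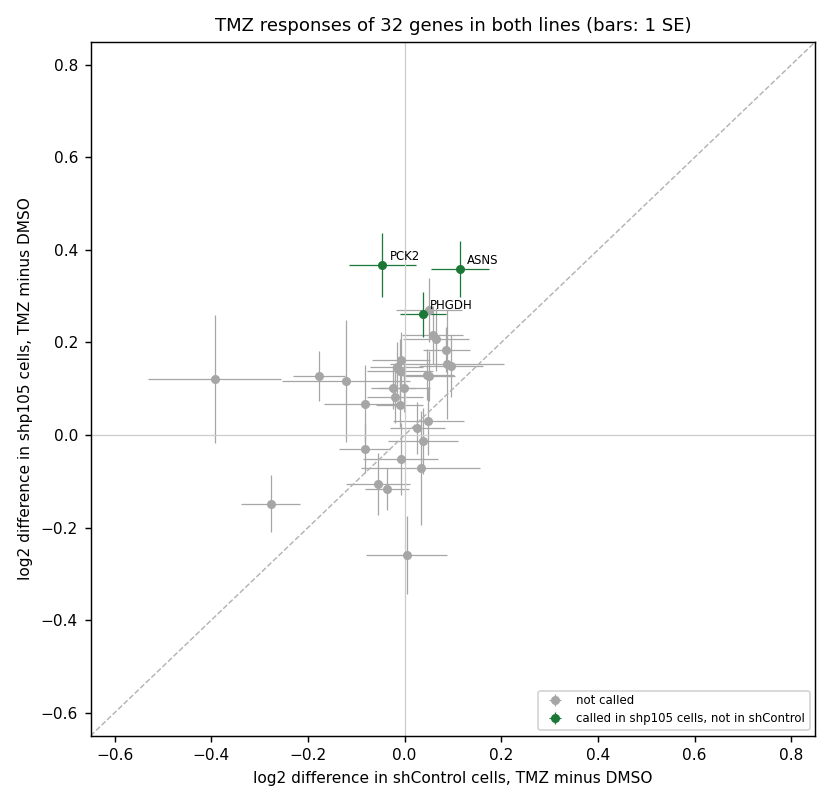
Log2 difference after TMZ (TMZ minus DMSO) of 32 genes in shControl cells (horizontal axis) and in shp105 cells (vertical axis), with bars of 1 SE. Most points lie above the dashed line of equal response, and ASNS, PCK2 and PHGDH are the 3 genes called in shp105 cells.

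The difference between the TMZ responses, shp105 minus shControl, was tested directly. Limma called 0 of the 32 genes and 0% of all genes after adjustment, as did every alternative run on the 32. At an unadjusted p under 0.05 there were 7, 6 with positive and 1 with negative values, beside 6.4% of all genes, 4.02% positive and 2.38% negative. PCK2 had a difference of responses of 0.41 (95% interval 0.20 to 0.63, adjusted p = 0.510), CTH of 0.30 (0.14 to 0.47, adjusted p = 0.533) and ASNS of 0.24 (0.06 to 0.43, adjusted p = 0.708). PHGDH and AARS1 each had 0.22, ALDH1L2 had 0.51 and PSPH had -0.26. The dimmer ALDH1L2 probe sets had -0.0024 and 0.17. These intervals are not adjusted for the number of genes. The responses of the lines thus were not shown to differ for any of the 32 genes.

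Genes around this set were read from lists of the same pathways. Between the lines, 10.1% of all genes were called higher in shp105 cells and 11% lower in TMZ, and 8.34% and 11.6% in DMSO. Of 6 measured other cytosolic synthetases and scaffolds of the synthetase complex, 0 were called between the lines under either treatment by limma; at an unadjusted p under 0.05 there were 0 in TMZ, beside 31.9% of all genes, and 1 in DMSO, beside 29.8%. Of 15 mitochondrial synthetases, 1 was lower in TMZ (6.67%) and 2 were lower in DMSO (13.3%), near the shares of all genes. They were FARS2 for phenylalanine (-0.22 in TMZ and -0.25 in DMSO) and PARS2 for proline (-0.24 in DMSO). AARS2, the mitochondrial alanyl-tRNA synthetase, was the member of the list that TMZ raised, by 0.53 (SE 0.10, adjusted p = 0.0395) in shp105 cells and by 0.59 (SE 0.10, adjusted p = 0.0389) in shControl cells.

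Of 18 other amino acid transporters, 4 were higher and 3 lower in shp105 cells under TMZ, and 4 and 3 in DMSO. Higher under both were SLC7A1, a cationic amino acid transporter (0.30 in TMZ and 0.20 in DMSO), SLC7A6, another light chain of SLC3A2 (0.29 and 0.30), the taurine transporter SLC6A6 (0.32 and 0.31) and SLC36A1 (0.39 and 0.41), a proton-coupled transporter. Lower under both were SLC1A3, a glutamate transporter (-0.59 in TMZ and -0.59 in DMSO), and SLC7A8, a neutral amino acid exchanger and relative of SLC7A5 (-0.56 and -0.35).

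Of 15 other genes of the folate and methionine cycles, 1 was higher (6.67%) and 2 were lower (13.3%) under each treatment, near the shares of all genes. The higher one was the thymidylate synthase TYMS (0.66 in TMZ and 0.61 in DMSO). The lower ones were ATIC, of purine synthesis (-0.44 and -0.51), and SLC25A32, a mitochondrial folate carrier (-0.30 and -0.29).

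Other amino acid enzymes went both ways, with 5 higher and 4 lower of 17 in TMZ and 4 and 4 in DMSO. GLUL, glutamine synthetase, was lower in shp105 cells by -2.59 (SE 0.08, adjusted p = 1.53e-09) in TMZ and by -2.76 (SE 0.08, adjusted p = 8.26e-10) in DMSO. It averaged 7.27 in shp105 cells with TMZ and 7.23 in shp105 cells with DMSO, against 9.86 in shControl cells with TMZ and 10.00 in shControl cells with DMSO. GLDC, the decarboxylase of the glycine cleavage system, was lower by -0.69 in TMZ and -0.68 in DMSO. The branched-chain aminotransferases BCAT1 (0.29 in TMZ and 0.30 in DMSO) and BCAT2 (0.53 and 0.28) were higher. In shp105 cells TMZ raised 1 gene of this list, the aspartate aminotransferase GOT1, by 0.29 (SE 0.06, adjusted p = 0.0492).

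**Figure D5:**
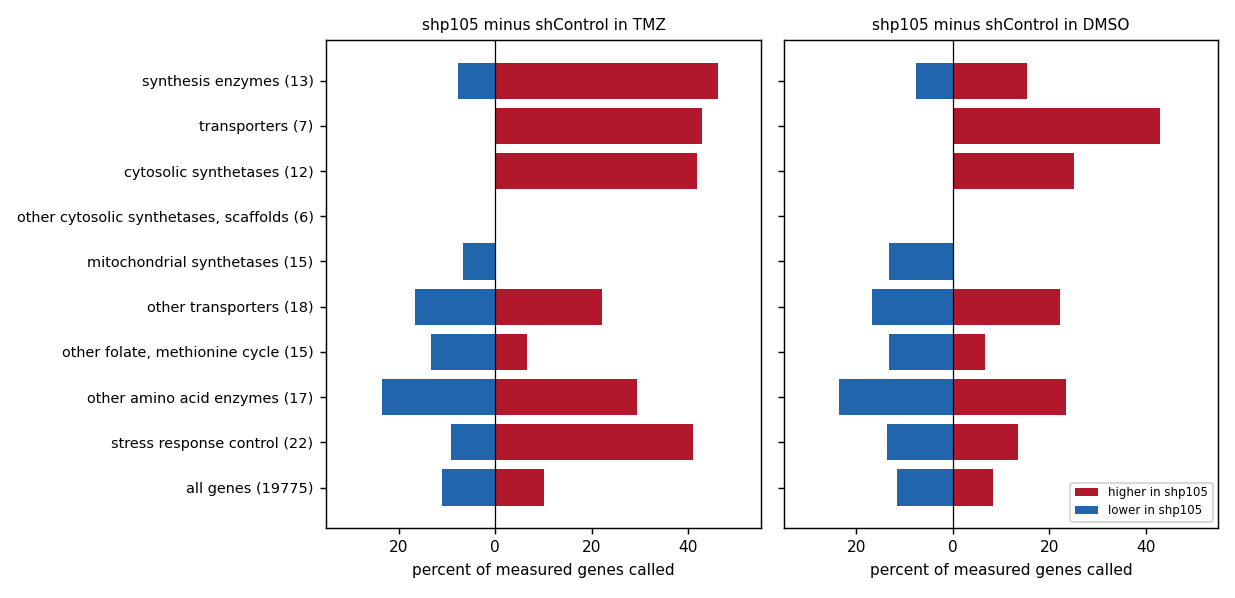
Percent of the measured genes of each list (number in brackets) called higher (right) or lower (left) in shp105 than in shControl cells, in TMZ and in DMSO. In TMZ 46.2% of the synthesis enzymes, 42.9% of the transporters and 41.7% of the cytosolic synthetases described here were higher, beside 10.1% of all genes.

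Among 22 genes that control or report the integrated stress response, 9 were higher and 2 lower in shp105 cells under TMZ, and 3 higher and 3 lower in DMSO. In TMZ these were 40.9% and 9.09%, beside 10.1% and 11% of all genes. In DMSO they were 13.6% each, beside 8.34% and 11.6% of all genes. ATF4 averaged 12.17 in shp105 cells with TMZ and 12.01 in shp105 cells with DMSO, against 11.98 in shControl cells with TMZ and 12.04 in shControl cells with DMSO. It was higher under TMZ by 0.19 (SE 0.05, adjusted p = 0.0241) and not called in DMSO (-0.04, adjusted p = 0.720). Since ATF4 is controlled mainly at translation, its mRNA level is only part of its activity. NUPR1, a stress-induced chromatin protein, was higher by 1.35 (SE 0.08, adjusted p = 1.89e-07) in TMZ and by 0.88 (SE 0.08, adjusted p = 6.62e-06) in DMSO.

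CEBPB, a C/EBP transcription factor, was lower in shp105 cells, by -0.27 in TMZ and -0.30 in DMSO. CEBPG, another partner of ATF4, was higher in TMZ (0.38, adjusted p = 0.00226) and not called in DMSO (0.20, adjusted p = 0.0742). DDIT3 was higher in TMZ (0.46, adjusted p = 0.000166) and not called in DMSO (-0.10, adjusted p = 0.278), as was DDIT4 (0.54, adjusted p = 4.35e-05, and -0.05, adjusted p = 0.640). STC2 (0.79 in TMZ and 0.605 in DMSO) and TRIB3 (0.42 and 0.23) were higher under both treatments. ATF5 was lower in DMSO (-0.27, adjusted p = 0.0137) and not called in TMZ (-0.14, adjusted p = 0.182). IMPACT, an inhibitor of the eIF2 kinase GCN2, was lower by -0.37 in TMZ and -0.26 in DMSO. In shp105 cells TMZ raised 3 genes of the list, NUPR1 by 0.48, CHAC1, a glutathione-degrading enzyme, by 0.39, and ATF3, a stress-induced transcription factor, by 0.37. These 3 were 13.6% of the list, beside 0.647% of all genes called higher. In shControl cells limma called 0 of the 22, beside 0.369% of all genes, and 5 had an unadjusted p under 0.05 (1 higher, 4 lower), beside 11% of all genes. For the difference of the TMZ responses limma called 0 of the 22 genes and 0% of all genes. At an unadjusted p under 0.05 there were 7, all with positive values, beside 4.02% of all genes with positive values. The responses of the lines thus were not shown to differ for any of the 22. The ATF4 response did not pass in shp105 cells (0.17, adjusted p = 0.153) or in shControl cells (-0.06, adjusted p = 0.740), and the difference of both responses was not called (0.23, adjusted p = 0.693).

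When the mean spike-in signal was added to the fit, 2 of the 15 calls in TMZ, 0 of the 9 in DMSO and 0 of the 3 after TMZ in shp105 cells remained (CTH and YARS1), while all 27 differences kept their sign. The median size of the 15 differences was 0.30 with the covariate and 0.31 without, and their median SE 0.12 and 0.06. For the 9 differences in DMSO the median size was 0.25 with and 0.24 without the covariate, and the median SE 0.14 and 0.06. For the 3 TMZ responses in shp105 cells the median size was 0.30 with and 0.36 without the covariate, and the median SE 0.08 and 0.06. The part of the spike-in level in these results was not tested beyond this fit.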

How the data were processed

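The deposited values are log2 expression levels of 54675 probe sets on 12 arrays. RMA and Affymetrix Power Tools are named in the submitters' processing notes, without versions or roles, with build and filters not given in the sources used here. Array medians lay between 5.04 and 5.09, and the number of arrays limits the precision. Symbols came from the array's probe table, updated through RefSeq (GRCh38.p14): 41097 probe sets had 1 symbol, and the 1801 with several and 11777 without were not used. The brightest probe set over all arrays stood for each of 19775 genes, with no filter on level.

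The 5 comparisons (the TMZ response of each line, TMZ minus DMSO; the line difference, shp105 minus shControl, in TMZ and in DMSO; and how the responses differ) are contrasts of 4 group means in 1 limma fit (lmFit, eBayes; R 4.3.3, limma 3.58.1), 2-sided, with Benjamini-Hochberg adjustment over all genes and a call under 0.05. The fit was tested on simulated data. Named are the listed genes, NFKB1, ATF4 and up to 4 called genes per direction of each further list by smallest p. VIM, GFAP, the other markers and CEBPG were chosen after their values were seen. The genes, lists and tests were chosen with earlier results of these data known. Promoter windows are RefSeq's. Python 3.11.15 with matplotlib 3.10.9 drew the plots.

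Alternatives covered the gene summary, dim genes, further normalization, array weights, the variance model, the groups fitted, a replicate block, the spike-in level, the threshold and each array left out.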

Additional observations from a re-analysis of the deposited data

How the results depend on the processing

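No called difference changed sign under any alternative run, and 12 of the 27 calls held under all 21 alternatives other than the spike-in covariate and the stricter threshold. Between the lines in TMZ, 15 genes were called, 9 at an adjusted p under 0.01, 2 with the spike-in covariate and 12 to 14 with 1 array left out. In DMSO 9 were called, 4 at an adjusted p under 0.01, 15 with a trended and robust variance, 15 with dim genes left out (28 of the 32 remained), 0 with the spike-in covariate and 5 to 10 with 1 array left out; the lowest count, 5, came without shp105_DMSO replicate 1 and without shControl_DMSO replicate 2. After TMZ in shp105 cells 3 were called, 9 with a trended and robust variance, 6 with dim genes left out, 1 with array weights, 0 at an adjusted p under 0.01, 0 with each probe set tested on its own, 0 with the compared groups alone, 0 with the spike-in covariate, and 0 to 3 with 1 array left out. After TMZ in shControl cells 0 were called, and 1 with array weights, with a trended and robust variance or with dim genes left out. The difference of responses gave 0 of the 32 genes in every alternative that could be run. Calls over all genes shifted too. With genes below the median level left out, the lines differed in 4332 genes in TMZ and 4176 in DMSO. In that setting TMZ called 904 genes in shp105 and 291 in shControl cells. With a trended and robust variance the lines differed in 4995 genes in TMZ and 4714 in DMSO. The cause of these shifts was not tested. Over all genes, TMZ called 171 in shp105 and 73 in shControl cells, 937 and 358 with a trended and robust variance, 2 and 19 with the compared groups alone, 84 and 30 with the block, and 13 and 0 with the spike-in covariate, under which the lines differed in 1045 genes in TMZ (4166 without it) and 523 in DMSO (3937 without it). Deviations of same-numbered arrays correlated at -0.11 to 0.12, not above 0.1 in every pair, so the arrays are taken to share only a number. In the TMZ comparison of shp105 cells these correlations were 0.02, 0.08 and 0.03, and 4 of 6 arrays were best matched by their own number, against 2 of 6 in each other comparison. With the replicate number as a block, 13 genes were called in TMZ, 8 in DMSO and 0 after TMZ in shp105 cells. Probe sets near the bacterial controls (MTHFD1L, SLC6A9, CBS) limit what can be read.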
